A study of Mus musculus with 21 samples.

Results

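Foxa2 peaks that lay inside the bodies of protein-coding genes, away from 5' ends and without T at the same place, were described in bulk cultures enriched for notochord progenitor-like cells. These regions were chosen by the measured peak lists themselves. A Foxa2 peak was kept if it shared no base with a T peak, if its summit was more than 5000 bp from every 5' end of a protein-coding gene, and if the summit fell inside a protein-coding gene record (GENCODE vM21, mm10). Of 22684 Foxa2 peaks, 21292 did not overlap a T peak and 9503 met all conditions, which is 41.9% of all Foxa2 peaks. Another 10180 Foxa2-only distal peaks lay between genes, 1609 Foxa2-only peaks lay within 5000 bp of a 5' end, and 1392 Foxa2 peaks were shared with T.

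Foxa2 is a forkhead-box transcription factor that is required for the node and notochord, the axial rod that patterns the neural tube and somites, and that also specifies endoderm. Forkhead factors can bind their sites on nucleosomal DNA and often occupy regions far from promoters, many of them in introns. T (brachyury) is the T-box factor expressed in mesoderm progenitors and notochord.

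Both ChIP-seq libraries came from 1 culture condition (NotoPdiff, day 4, with CHIR and 1 ng/ml Dox). The mESC line F1G4 (C57BL/6N x SV129) carried TRE::Foxa2-IRES-EGFP at Rosa26 together with the BAC reporters T::H2B-mCherry-T2A-irTA and Noto::H2B-mTurquoise. Foxa2 in these cells was thus a Dox-induced transgene in cells with T promoter activity, in addition to any endogenous protein. Expression of the host genes was read from 9 RNA-seq libraries. Cells sorted from the cultures were NMPdiff (day 3, T+/Noto-), NotoPdiff (day 4, Noto+/T+) and MPdiff (day 4, T+/Noto-). The NotoPdiff culture received Dox, whereas the NMPdiff and MPdiff cultures did not. NotoPdiff and MPdiff thus differed in Dox treatment as well as in the sorted population. NotoP (Noto+/T+/Foxa2+) and MP (T+/Noto-/Foxa2-) cells were sorted from caudal embryo ends, and T+/Noto+/Foxa2+ cells were sorted from trunk tissue (trunk notochord), each at E8.5 and E9.5, from embryos with BAC reporters for T (H2B-Venus), Noto (H2B-mCherry) and Foxa2 (H2B-mTurquoise). Each condition had 1 library, so no difference below has a replicate check or a test. Intervals given below are 95% intervals for counting error only, and genes or regions counted in them are not replicates.

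Marker genes were checked against the labels. Summed FPKM over 8 notochord markers (Noto, T, Foxa2, Shh, Chrd, Nog, Mnx1 and Foxj1) was 613 in NotoPdiff, 29.2 in MPdiff and 422 in NMPdiff, and 1420 and 1203 in NotoP at E8.5 and E9.5. All 8 were at 1 FPKM or more in NotoPdiff, whereas Noto, Shh and Foxj1 were listed at 0 in MPdiff. T alone made up 375 of the 613 FPKM in NotoPdiff and 406 of the 422 FPKM in NMPdiff. In NMPdiff, Noto was at 0.515 FPKM and Shh at 0. Reporters for T and Noto were also used to sort the cells, and Foxa2 was the induced transgene. Summed endoderm markers were also higher in NotoPdiff (167 FPKM) than in MPdiff (9.21 FPKM), with 126 of the 167 FPKM from Cldn6, 4 of 8 at 1 FPKM or more, and Hnf4a and Ttr listed at 0 in NotoPdiff. Their part in the differences below was not tested. Summed mesoderm markers (Tbx6, Msgn1, Osr1, Pcdh8, Meox1, Foxc2, Tcf15 and Hes7) were at 54.9 FPKM in NotoPdiff and 109 in MPdiff. In the embryo these mesoderm sums were 161 in NotoP and 193 in MP at E8.5, and 115 and 278 at E9.5. The endoderm sums were 71.5 in NotoP and 130 in MP at E8.5, and 33.5 and 2.94 at E9.5. Their part in the embryonic differences was not tested either. The MP library at E8.5 listed 13945 of 23983 genes at 0, more than the 7573 to 12407 of the other 8 libraries. Among the embryonic libraries, the study lists the fewest sorted cells and mapped reads for it. Both trunk notochord libraries had fewer cells and reads than both NotoP libraries, which limits the trunk values below.

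The windows below are GRCm38 (mm10) sequence, plus strand, with 50 bases on either side of the summit. Capitals mark forkhead letters, meaning any of 4 words on either strand. They are the word TGTTTAC, the word TGTTTGC, the word TATTTAC and the word TATTTGC. The first 3 are among the members with the highest fold enrichment (25.7, 24.8 and 24.6), and the Sox5 window is the strongest of 17 members in that gene. They are shown because all 4 lack forkhead letters, and because short runs of alternating CA or TG recur through the Chrm3 and Sox5 windows.
Fhit, chr14:10032220-10032320: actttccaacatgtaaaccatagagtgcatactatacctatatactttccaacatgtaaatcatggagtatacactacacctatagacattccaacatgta
Chrm3, chr13:9999345-9999445: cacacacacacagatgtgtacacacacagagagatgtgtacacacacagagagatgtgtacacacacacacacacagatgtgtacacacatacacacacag
Dock1, chr7:134900511-134900611: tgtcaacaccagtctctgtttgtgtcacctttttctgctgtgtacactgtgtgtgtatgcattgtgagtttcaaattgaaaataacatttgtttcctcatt
Sox5, chr6:144630209-144630309: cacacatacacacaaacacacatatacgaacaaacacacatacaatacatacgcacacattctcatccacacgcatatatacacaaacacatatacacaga
The next 6 windows show members without a CA or TG run. Slit2, Prickle2 and Sox6 are genes of the notochord list, each shown by its strongest member. The members in Fh1, Setd4 and Zkscan6 were the 3 strongest with forkhead letters centred within 10 bp of the summit and no such run, and they were picked after the sequences had been seen.
Slit2, chr5:48274115-48274215: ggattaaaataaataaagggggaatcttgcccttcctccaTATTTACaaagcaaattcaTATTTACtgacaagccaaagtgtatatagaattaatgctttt
Prickle2, chr6:92635165-92635265: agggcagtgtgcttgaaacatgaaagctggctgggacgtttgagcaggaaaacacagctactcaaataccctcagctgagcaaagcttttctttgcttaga
Sox6, chr7:115973751-115973851: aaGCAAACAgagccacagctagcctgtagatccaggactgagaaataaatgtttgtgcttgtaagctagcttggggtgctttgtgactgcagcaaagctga
Fh1, chr1:175608015-175608115: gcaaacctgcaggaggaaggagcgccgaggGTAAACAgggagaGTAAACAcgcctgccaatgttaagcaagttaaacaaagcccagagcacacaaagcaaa
Setd4, chr16:93591508-93591608: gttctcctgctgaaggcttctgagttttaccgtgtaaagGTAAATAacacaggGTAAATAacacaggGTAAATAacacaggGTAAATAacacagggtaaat
Zkscan6, chr11:65819819-65819919: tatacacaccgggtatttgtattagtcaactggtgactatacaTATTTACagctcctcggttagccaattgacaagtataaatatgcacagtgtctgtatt
The Slit2 window holds 2 forkhead words and the Setd4 window holds 4, spaced evenly. The Prickle2 member, with a fold enrichment of 19.9, has none of these words.

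Forkhead letters were present within 50 bp of the summit in 2852 of 9503 members (30.0%, Wilson interval 29.1 to 30.9%). At positions 10 kb to either side of the same summits the share was 6.51% (6.17 to 6.87%, n = 19006). The share in Foxa2-only peaks between genes was 28.1% and at promoters 34.2%. In Foxa2 peaks shared with T it was 45.4% (42.8 to 48.0%, n = 1388 without 4 on mitochondrial DNA), above the interval of the members. T-only distal peaks inside genes, of which there were 2142, had 17.9%. Among the members, 482 held 2 forkhead words and 72 held 3 or more. The word nearest to the summit was centred a median of 16 bp from it, and 35.0% of the members with a word had it within 10 bp. All 4 words were more frequent than beside the members. TATTTAC occurred in 10.3% of members against 1.72% of the flanking windows, and TGTTTAC in 9.59% against 1.55%.

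CA/TG repeats were the letters that separated members from their flanks the most. Of all 7-letter words, ACACACA, read as TGTGTGT on the other strand, had the largest difference in share. It was found in 4029 members (42.4%, 41.4 to 43.4%) and in 6.38% of the flanking windows. This word was taken as the mark of a repeat after the shares had been seen. Runs of at least 15 bases of strictly alternating purine and pyrimidine were present in 35.0% of members and 3.71% of flanking windows. The repeat was somewhat more frequent in Foxa2-only peaks between genes (46.1%, 45.2 to 47.1%) and less frequent at promoters (36.7%, 34.4 to 39.1%). In contrast, it was found in 11.2% of Foxa2 peaks shared with T and in 5.32% of T-only distal peaks inside genes.

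**Figure D1:**
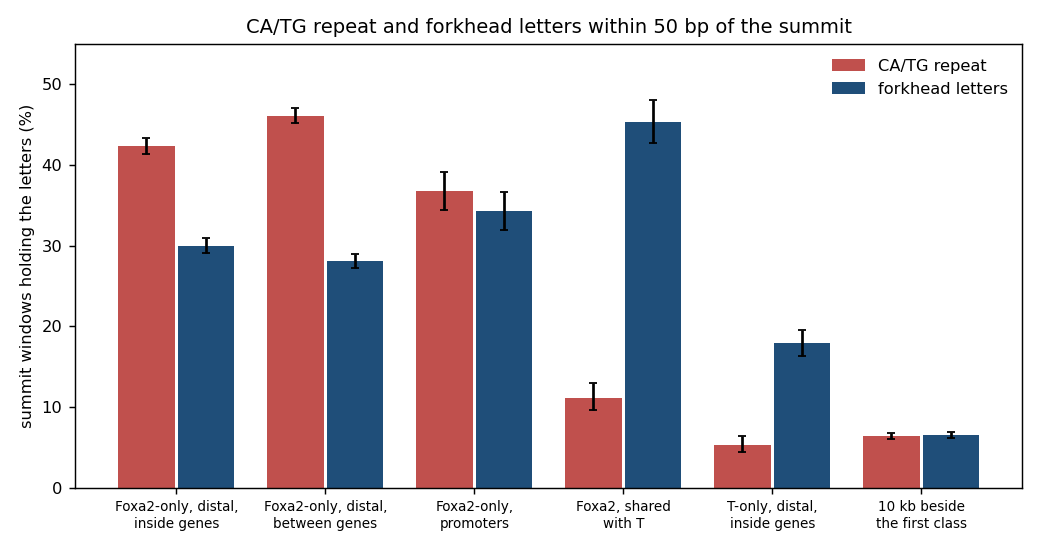
Share of windows of 50 bases on either side of the summit (y axis, %) that hold ACACACA or its complement (red) or a forkhead word (blue) in 5 peak classes and at positions 10 kb beside the members, with 95% Wilson intervals. The repeat was in 42.4% of the Foxa2-only distal peaks inside genes and in 5.32% of the T-only ones, while forkhead words were most frequent (45.4%) in peaks shared with T.

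Members with and without the repeat differed in their forkhead content and in strength. Forkhead words were found in 16.4% (15.3 to 17.6%) of the members with the repeat and in 40% (38.8 to 41.3%) of the 5474 members without it. Median fold enrichment was 7.71 with the repeat and 6.6 without it. The share of members with the repeat was 30.7% in the lowest quartile of fold enrichment and 53.0% in the highest. Within the members without the repeat, 28.7% of the lowest and 50.6% of the highest quartile of all members held forkhead words. Over all members, forkhead words were in 24.1%, 31.4%, 31.3% and 33.3% from the lowest to the highest quartile. Thus the repeat share rose with peak strength, while the forkhead share of all members rose mainly between the 2 lowest quartiles. Neither feature was found in 3282 members (34.5%). Summits with the repeat lay in soft-masked sequence in 76.6% of cases, compared with 16.0% without it. No input library was analysed here, so the read level at these repeats without the antibody is not known.

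Long repeats had a member summit beside them far more often than short ones. On the autosomes, the gene bodies beyond 5000 bp from 5' ends held 557456 CA/TG tracts of at least 7 bases, joined where less than 100 bp apart, and 4201 of them (0.754%) had a member summit within 50 bp. Tracts with 7 to 10 repeat bases had one in 0.161% of cases, those with 41 to 80 bases in 1.94%, and those with 81 or more bases in 17.6% (16.9 to 18.4%; 1748 of 9924). Long tracts also cover more sequence, with a median span of 243 bp in the longest class and 7 bp in the shortest. T-only summits were beside 1 of the 9924 longest tracts (0.0101%) and beside 0.0369% of the shortest.

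**Figure D2:**
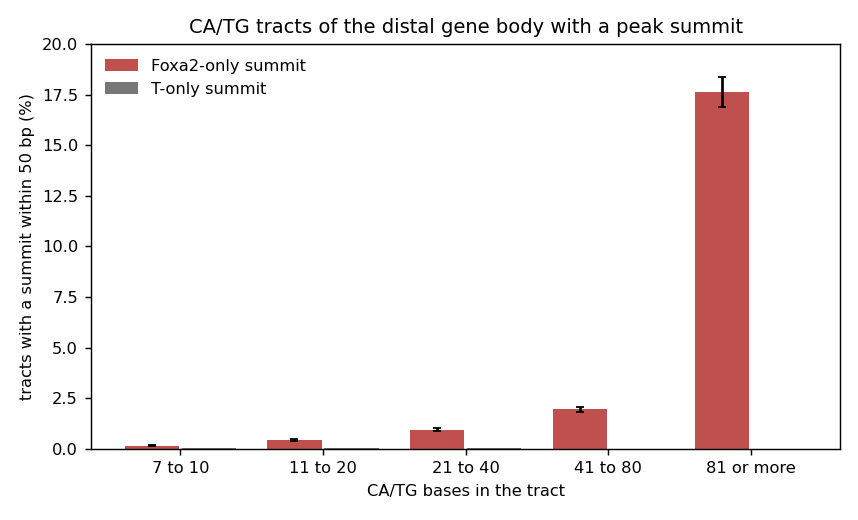
Share of CA/TG tracts in distal gene bodies of the autosomes (y axis, %) with a summit within 50 bp, by the number of repeat bases in the tract (x axis), for Foxa2-only members (red, with 95% Wilson intervals) and T-only peaks (grey). The share rose from 0.161% to 17.6% for Foxa2-only summits and stayed below 0.04% for T-only summits.

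Other motifs were searched on both strands in the same windows, and none came near the forkhead share. The 8-letter T site AGGTGTGA was in 0.431% of members, 0.353% of flanking windows and 3.41% of T-only distal peaks inside genes. GATA letters (AGATAAG) were in 1.02% of members against 1.39% of flanking windows, and AP-1 letters (TGANTCA) in 2.68% against 3.06%. SOX letters (AACAATG) were in 2.52% against 1.63%, and the POU octamer (ATGCAAAT) in 1.3% against 0.710%. TCF/LEF letters (CTTTGAT) were in 1.86% against 1.87%, TEAD letters (GGAATGT) in 1.47% against 1.14% and TAATTA in 2.68% against 3.24%. The 6-letter T site GGTGTG overlaps the repeat letters and was in 12.8% of members against 6.29%.

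Members were mostly intronic. Summits of 9051 members (95.2%) lay in introns, which made up 92.5% of the gene body open to the rule. Coding exons held 70 members (0.737%) and 2.82% of the bases, so that density was 2.67 per Mb there and 10.51 per Mb in introns. UTR exons held 251 members (8.78 per Mb). Of 8797 members placed in an intron of the longest coding transcript of their only host, 23.6% were in the first intron, beside 23.5% of the host intron bases beyond 5000 bp. Along the gene, cut into 4 equal parts from the 5' end, the members of a single gene were at 21.3%, 26.9%, 26.9% and 24.9%. The median distance to the nearest 5' end was 57.8 kb. At the distance threshold, 156 members lay within 1 kb beyond it (median fold enrichment 7.22), beside 181 excluded Foxa2-only peaks in genes within 1 kb short of it (6.94). The nearest T summit was a median of 99.0 kb away, and 352 members (3.70%) had one within 5000 bp. Only 10 members had a T peak within 100 bp of their edge, with a median fold enrichment of 6.87, beside 8.15 for the 622 distal peaks in genes that overlapped T.

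Foxa2-only distal peaks were denser inside genes than between them. There were 10.2 members per Mb of gene body beyond 5000 bp from 5' ends, and 6.37 Foxa2-only distal peaks per Mb between genes. T-only distal peaks showed the same order, with 2.30 and 1.54 per Mb. On the autosomes alone the values were 10.6 and 7.19 per Mb for Foxa2-only peaks and 2.38 and 1.72 for T-only peaks. Assembly gaps and sequence without uniquely mapped reads were not taken out of these lengths. On the autosomes the density of members ranged from 8.80 per Mb on chromosome 7 to 12.5 per Mb on chromosome 19. Chromosome X had 3.03 per Mb (Poisson interval 2.51 to 3.61) against 10.6 over the autosomes. T-only distal peaks inside genes were also sparse on X, at 0.738 per Mb against 2.38. Members with and without the repeat were both sparser on X (1.06 against 4.49 and 1.97 against 6.08 per Mb). The study states that its cell lines came from male mESCs, which carry a single X chromosome. The part of X copy number in these densities was not tested.

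The 9503 members lay in 4333 host genes, 19.7% of the 21951 protein-coding records. Hosts were long, with a median of 88.1 kb against 12.1 kb for the other records. A single member was found in 2402 hosts (55.4%), 430 hosts had 5 or more members and 102 had 10 or more. The median length was 56.2 kb for hosts with 1 member and 831 kb for hosts with 10 or more. The hosts with 5 or more members contained 36.0% of all members. Only 184 members fell in more than 1 gene.

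The record with most members, Gm20388 (43 members over 4435 kb), and Gm37240 (23 over 1391 kb) had no RefSeq gene record and no FPKM row. The GENCODE record of Fgfr2, the fibroblast growth factor receptor, spanned 2961 kb and held 25 members, whereas its RefSeq record spanned 104 kb and held 1. The counts of these 3 records rest on their long GENCODE spans. Zfhx3, a homeobox transcription factor gene, had 21 members and 12 within its shorter RefSeq record. The other 6 of the top 10 kept their counts to within 1 member. They were Ptprd, a receptor tyrosine phosphatase (26 members over 2271 kb), Mecom, a zinc finger transcription factor (22 over 597 kb), the adhesion gene Sdk1 (22 over 974 kb), the junction scaffold gene Magi2 (21 over 1478 kb), the neuronal adhesion gene Lsamp (20 over 2197 kb) and Nckap5 (20 over 917 kb).

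**Figure D3:**
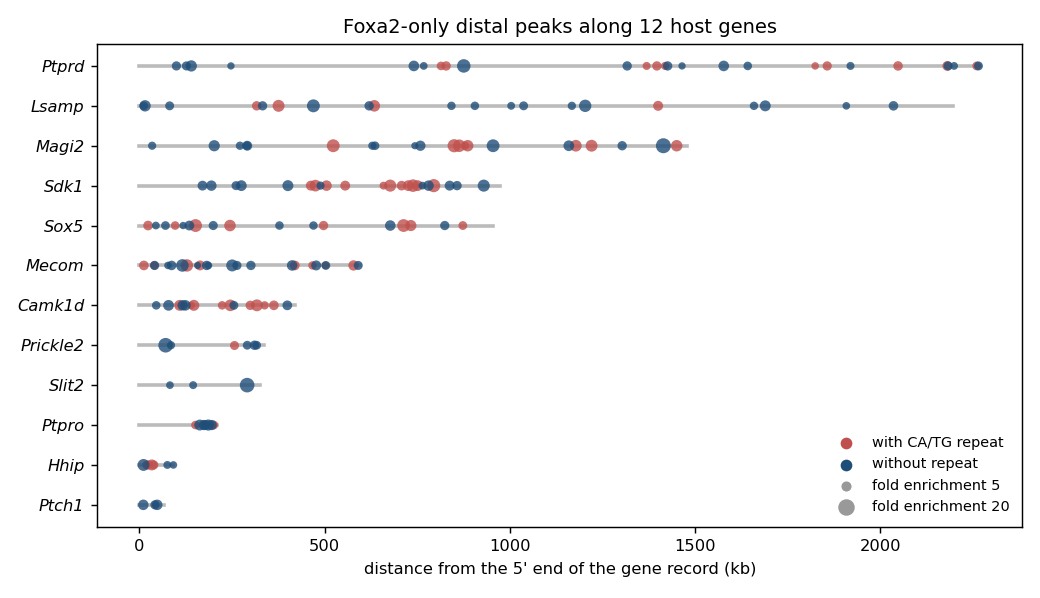
Summits of the Foxa2-only distal peaks along 12 host genes (rows, grey lines drawn to the length of the gene record), by distance from the 5' end in kb, with point area growing with fold enrichment and red for summits with the CA/TG repeat. Members ran the length of Ptprd, Lsamp, Magi2 and Sox5, whereas the 7 members of Ptpro lay in 49.6 kb near its 3' end.

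The 8 of the top 10 hosts with FPKM values were between 0.434 (Lsamp) and 6.23 FPKM (Zfhx3) in NotoPdiff. Ptprd had 4.56 FPKM in NotoPdiff, 1.83 in MPdiff and 0.880 in NMPdiff. In the embryo Ptprd was at 18 and 16.2 FPKM in NotoP at E8.5 and E9.5, at 0.853 and 2.96 in MP, and at 28.7 and 77.9 in trunk notochord. Thus every notochordal library was above the stage-matched or culture-matched MP library for this gene. Sdk1 had 3.35 FPKM in NotoPdiff and 0.776 in MPdiff, 5.43 and 2.72 in NotoP, and 0.305 and 0 in MP. Fgfr2 had the opposite order in culture (0.966 FPKM in NotoPdiff and 2.13 in MPdiff) and at E9.5 (0.530 in NotoP and 4.40 in MP). At E8.5 it was at 1.75 FPKM in NotoP and 2.14 in MP. In trunk notochord, however, Fgfr2 was at 17.6 and 13.6 FPKM, above MP at both stages. Zfhx3 was at 6.23 FPKM in NotoPdiff and 6.16 in MPdiff. Lsamp was at or below 0.881 FPKM in all 9 libraries, with 20 members.

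When members were counted per length, Dpy19l1 was the densest host with 5 or more members, at 7.7 per 100 kb, followed by Hhip, Cnksr3, T2 and Nwd1 (7.0 per 100 kb). Dpy19l1 was at 23.2 FPKM in NotoPdiff and 21.7 in MPdiff. Nwd1 was at or below 0.0139 FPKM in every library, and all 5 of its members held the repeat. Hence a high density was found in hosts that were broadly expressed and in hosts that were nearly silent.

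Members formed 153 clusters of 3 or more, joined where neighbouring summits were no more than 12.5 kb apart, and these held 484 members (5.09%). There were 18 clusters of 4 or more members and 891 pairs, and 7237 members stood alone. Ptpro, a receptor tyrosine phosphatase, had the largest, with 7 members over 49.6 kb. Plekhh2 had 6 members over 31.3 kb, Sema3a, a secreted semaphorin, had 5 over 25.9 kb, and Hhip, which binds and limits hedgehog ligands, had 5 over 28.2 kb. The tightest of the clusters of 4 lay in Atrnl1 (9.54 kb). Cluster members resembled lone members in median fold enrichment (6.90 and 7.08), in forkhead words (30.6% and 30.0%) and in the repeat (44.2% and 42.7%). When members with the repeat were left out, there were 35 clusters of 3 or more.

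Of the hosts, 4238 could be matched to a row of FPKM values. Hosts were more often expressed than genes in general, with 68.2% (66.7 to 69.6%) at 1 FPKM or more in NotoPdiff against 55.5% of all 20400 matched genes. Host length was one difference between these groups. Within genes of 100 to 200 kb the shares were 74.2% for hosts with 3 or more members, 73.1% for hosts with 1 or 2 and 65.0% for genes without a member. For genes of 200 kb or more they were 59.7%, 60.8% and 39.6%. Hosts with 10 or more members had a median of 1.70 FPKM in NotoPdiff, below the 5.60 FPKM of hosts with 1 member. In all 9 libraries 1999 hosts (47.2%) were at 1 FPKM or more, beside 37.4% of all matched genes.

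To take gene length out of the comparison, members were counted per Mb of gene body beyond 5000 bp from 5' ends. Density was 7.70 per Mb (7.22 to 8.20) in genes listed at 0 in NotoPdiff, 9.64 in genes above 0 and below 1 FPKM, 11.0 at 1 to 10 FPKM, 11.3 at 10 to 50 FPKM and 11.2 (9.94 to 12.5) at 50 FPKM or more. The increase was seen in the members without the repeat, from 3.78 per Mb (3.45 to 4.14) in genes at 0 to 7.36 (7.01 to 7.73) at 10 to 50 FPKM and 7.72 (6.71 to 8.83) at 50 or more. Members with the repeat had 3.92, 4.46, 4.68, 3.97 and 3.44 per Mb over the same classes. Here the first and last intervals overlapped (3.58 to 4.28 and 2.78 to 4.21). Both lay below the interval at 1 to 10 FPKM (4.44 to 4.92). T-only distal peaks had 1.24 per Mb in genes at 0 and 2.96 at 50 FPKM or more.

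**Figure D4:**
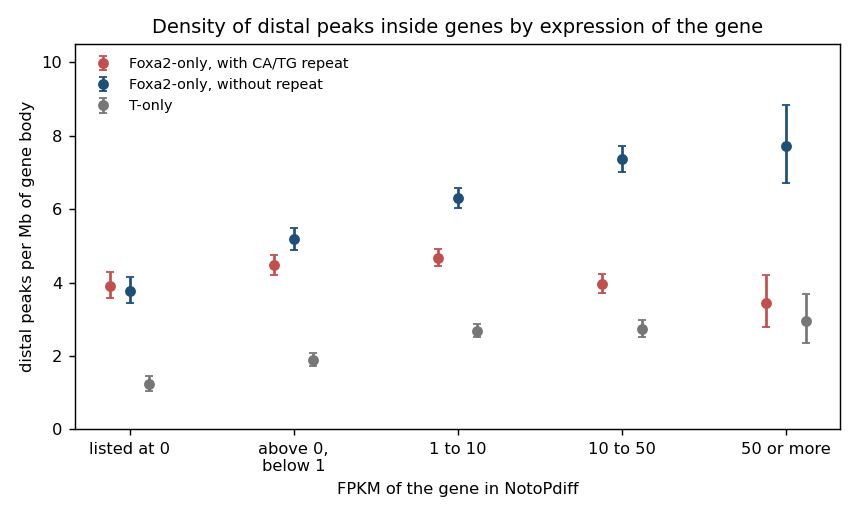
Distal peaks per Mb of gene body (y axis) by FPKM of the gene in NotoPdiff (x axis), for Foxa2-only members with the CA/TG repeat (red), members without it (blue) and T-only peaks (grey), with exact 95% Poisson intervals. Members without the repeat went from 3.78 to 7.72 per Mb from silent to highly expressed genes, and members with it stayed between 3.44 and 4.68 per Mb.

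The next question was whether hosts differed between notochordal and mesodermal cells. On the log2(FPKM + 1) scale, which understates changes of low genes, 132 of 4238 hosts (3.11%) were at least 3-fold higher in NotoPdiff than in MPdiff, beside 1.76% of all genes. Another 29 hosts (0.684%) were at least 3-fold lower, beside 0.461%. In hosts with 5 or more members the shares were 5.21% and 1.90%, and in genes without a member 1.41% and 0.402%. In genes of at least 50 kb, the share at least 3-fold higher was 5.48% (4.25 to 7.04%) for hosts with 3 or more members and 1.6% (1.11 to 2.28%) for genes without one. The share at least 3-fold lower was 1.54% (0.949 to 2.48%) and 0.715% (0.419 to 1.22%) in these groups. In the embryo at E9.5, 174 hosts (4.11%) were at least 3-fold higher in NotoP than in MP, beside 2.84% of all genes, and 58 (1.37%) were lower, beside 1.15%. At E8.5 the shares were 12.3% higher and 4.06% lower, beside 9.8% and 4.38% of all genes, with the sparse MP library in each of these values. The median difference of hosts was 0.04 in culture (log2), beside 0.00 over all genes.

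Per Mb, genes that were at least 3-fold higher in NotoPdiff had 12.1 members (10.9 to 13.4), and those at least 3-fold lower had 11.9 (9.82 to 14.3). Genes within 1.5-fold, taken where 1 of both libraries reached 1 FPKM, had 10.6 (10.3 to 10.9). Thus the intervals of the genes 3-fold higher and 3-fold lower overlapped. Between 1.5-fold and 3-fold they did not, with 12.6 per Mb (12.0 to 13.2) in the 1694 higher genes and 9.996 (9.12 to 10.9) in the 1022 lower genes. For T-only distal peaks the values were 3.95, 3.94 and 2.38 per Mb. Without the repeat, member densities were 6.99 (6.11 to 7.97) in the genes 3-fold higher, 5.43 (4.04 to 7.14) in those 3-fold lower and 6.70 (6.44 to 6.97) in those within 1.5-fold, with overlapping intervals. Between 1.5-fold and 3-fold they were 7.13 (6.67 to 7.61) in the higher and 5.80 (5.14 to 6.52) in the lower genes, and these intervals did not overlap. With the repeat, densities were 5.13 (4.37 to 5.97) in the genes 3-fold higher and 6.49 (4.97 to 8.34) in those 3-fold lower, both above the 3.89 (3.69 to 4.09) of those within 1.5-fold.

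Hosts with 3 or more members were ranked by the difference between NotoPdiff and MPdiff. Prox1, a homeobox transcription factor gene, stood first with 29.1 FPKM in NotoPdiff against 1.17 in MPdiff and 3.00 in NMPdiff. Its 3 members were weak (at most 5.74-fold enriched), and in the embryo it was at 17.6 and 13.2 FPKM in NotoP and MP at E8.5 and at 8.87 and 0.995 at E9.5, with 14.4 and 17.2 in trunk notochord. Bicc1, which encodes an RNA-binding protein needed for left-right asymmetry, had 3 members over 237 kb and no T-only or shared peak in its body. Its FPKM was 106 in NotoPdiff, 8.99 in MPdiff, 4.28 in NMPdiff, 159 and 54.2 in NotoP, 0 and 5.16 in MP, and 39.0 and 13.0 in trunk notochord. All 5 notochordal libraries were above all 4 others for Bicc1.

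Slit2, a secreted ligand of Robo receptors, had 43.4 FPKM in NotoPdiff, 4.90 in MPdiff and 4.74 in NMPdiff, and in the embryo 119 and 141 in NotoP, 2.15 and 8.45 in MP, and 175 and 398 in trunk notochord. Its strongest member was 19.8-fold enriched and lay 291 kb from its 5' end, and none of its 3 members held the repeat. Sema3e, a semaphorin that binds plexin D1, was at 15.8 FPKM in NotoPdiff against 0.969 in MPdiff and 1.34 in NMPdiff, at 34.8 and 23.5 in NotoP, 0 and 0.866 in MP, and 26.0 and 14.9 in trunk notochord. The remaining 6 of the 10 largest differences were Cd109, Dnajc12, Camk1d, Plekhg1, Cmtm8 and Lypd6b, with log2 differences of 2.59 to 3.66. Camk1d stood out with 15 members, 9 of them with the repeat, but its FPKM was 7.51 in NotoPdiff and at most 1.25 in any embryonic library.

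The 5 hosts with the lowest values in NotoPdiff relative to MPdiff included 2 guidance receptor genes. Unc5c, a netrin receptor, was at 0.717 FPKM in NotoPdiff and 11.8 in MPdiff, and Nrp1, the co-receptor of semaphorins and VEGF, was at 1.54 and 13.9. Nrp1 had 6 members and was not lower throughout, since it was at 2.07 FPKM in NotoP and 10.52 in MP at E8.5, at 3.59 and 0.850 at E9.5, and at 24.5 and 18.9 in trunk notochord. Hmga2, a chromatin protein gene, was at 60.5 against 325 FPKM, and all 4 of its members held the repeat, as did all 5 of Tmem132c (4.28 against 26.4 FPKM). Aldh1a2, which makes retinoic acid, was at 70.3 in NotoPdiff and 364 in MPdiff, and had 4 members.

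**Figure D5:**
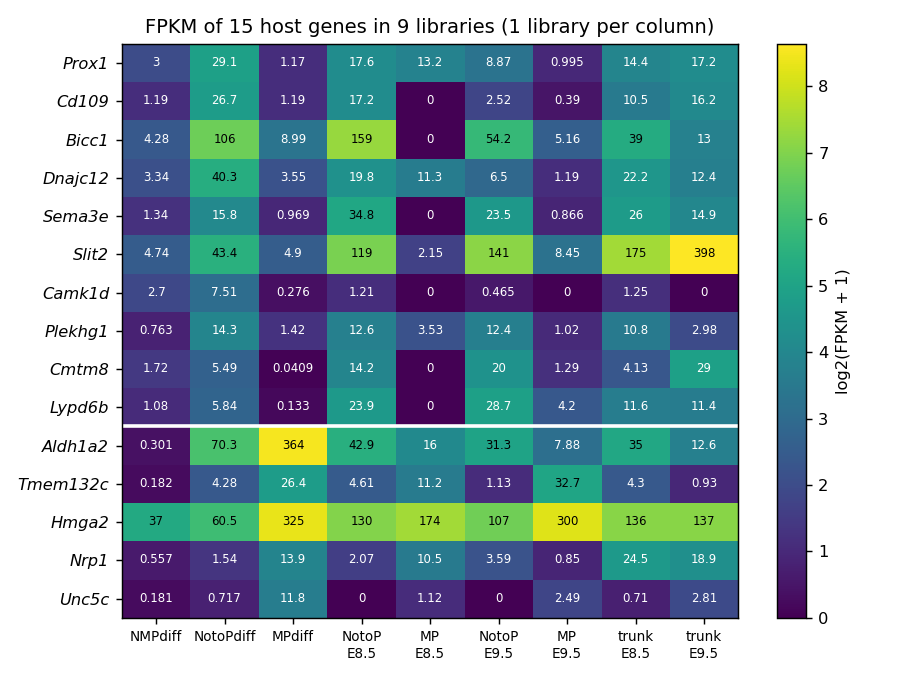
FPKM (numbers) and log2(FPKM + 1) (colour) in 9 libraries for the 10 hosts with the largest and the 5 with the smallest difference between NotoPdiff and MPdiff among hosts with 3 or more members, trunk meaning trunk notochord. Bicc1, Slit2 and Sema3e were high in all notochordal columns, and Hmga2 and Tmem132c had their 3 highest values in MP at both stages and MPdiff.

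Hosts at least 3-fold higher in NotoPdiff and in NotoP at both stages than in the matching MP library numbered 36, out of 105 such genes (34.3%). Hosts made up 20.8% of all matched genes, and the 105 genes had a median length of 24.7 kb. Pde1c had the most members of them (7), followed by Nedd9 and Prickle2 with 6 each and Nav3 with 5. Slit2, Sema3e, Bicc1 and Ptch1 were also among them, and so were Bmp7, Cobl, Frem1 and Frem2. In the opposite direction, 2 hosts of 10 such genes were at least 3-fold lower in all 3 pairs.

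Genes known from notochord and node were then taken as a list. Of its 25 genes, 9 were hosts, with 37 members in all. Of the 8 hosts with FPKM values, 5 (Bicc1, Slit2, Prickle2, Moxd1 and Cobl) were at least 3-fold higher in NotoPdiff than in MPdiff, as were 20 of the 24 listed genes, and the list was chosen for such expression. Member density was 11.9 per Mb (8.41 to 16.5), beside 10.3 over all matched genes. Sox5, a SoxD factor gene that acts with Sox6 in notochord sheath formation, had 17 members, and was at 0.454 FPKM in NotoPdiff and 0.251 in MPdiff, at 1.73 and 4.13 in NotoP, and at 10.6 and 13.7 in trunk notochord. Sox6, with 3 members, had 3.13 FPKM in NotoPdiff, 1.12 in MPdiff and 21.6 and 39.8 in trunk notochord. Both SoxD genes had their highest levels in trunk notochord. Other markers were also higher in the trunk libraries than in NotoP, with summed endoderm markers at 109 and 154 FPKM against 71.5 and 33.5, Ttr at 36.03 and 23.4 against 0 and 0, Afp at 2.11 and 95.7 against 0 and 0, and the fibroblast marker Col1a2 at 29.5 and 20.3 against 2.02 and 3.76. Their part in the SoxD levels was not tested. Prickle2, a planar cell polarity gene, was at 34.7 FPKM in NotoPdiff, 8.01 in MPdiff and 1.28 in NMPdiff, and at 26.2 and 18.6 in NotoP against 1.0 and 2.84 in MP. None of the 8 defining markers (Noto, T, Foxa2, Shh, Chrd, Nog, Mnx1 and Foxj1) was a host, but their records held only 0.0118 Mb beyond 5000 bp from 5' ends, so that they offered little sequence to the rule. A cluster of 4 members in T2 (chr17:8400572-8415851) spanned TE3 and TE9, which the study defined as candidate enhancers of the T locus. Which gene a member acts on was not tested.

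The hedgehog pathway, through which the notochord patterns its surroundings, had 9 hosts among 18 genes and 28 members, a density of 20.2 per Mb (13.4 to 29.2). Leaving out the repeat it was 13.7 (8.26 to 21.4), beside 5.97 over all genes. Hhip had 7 members and was at 0.745 FPKM in NotoPdiff and 0.0766 in MPdiff, and at 2.18 and 12.6 in trunk notochord. Ptch1, the receptor and a target of the pathway, had 3 members, none with the repeat, and 112 FPKM in NotoPdiff against 23.0 in MPdiff, the only host of the list that was 3-fold apart. Over all 18 genes 3 were 3-fold higher and 0 lower, beside 1.76% and 0.461% of all genes, which are the background for the lists below as well. It was at 150 and 86.0 in NotoP, 12.7 and 23.7 in MP, and 189 and 136 in trunk notochord. Gli3, a transcription factor of the pathway, had 5 members without the repeat and was at 22.4 FPKM in NotoPdiff and 40.4 in MPdiff. Hhat, which acylates hedgehog ligands, had 4 members and was at 1.2 and 0.813 FPKM.

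Among guidance ligands and receptors 26 of 39 genes were hosts, with 104 members (10.4 per Mb). The listed genes were long, with a median of 188 kb against 18.3 kb over all matched genes. Over all matched genes 20.8% were hosts, at 10.3 members per Mb. Both values are the background for the other lists as well. Of the 26 guidance hosts 4 were 3-fold higher and 4 were 3-fold lower in NotoPdiff than in MPdiff, and over all 39 genes 5 and 4. The higher ones were the ligands Slit2, Sema3e and Ntn1 and the ephrin receptor Epha7, while the lower ones were the receptors Unc5c, Nrp1 and Nrp2 and the semaphorin Sema6d. Like the other hosts named below for a 3-fold difference, these were named after their values had been seen. Robo2 (13 members) and Robo1 (7 members), the Slit receptors, were at 0.944 and 7.67 FPKM in NotoPdiff against 4.65 and 22.8 in MPdiff. Sema3a had 7 members and was at 0.384 against 2.42 FPKM. Junction and polarity genes, with a median length of 133 kb, had 22 hosts of 34 with 120 members (11.6 per Mb). Of these hosts, Cobl, Ctnnd2 and Cldn1 were 3-fold higher and Cdh11 was lower. Over all 34 genes 9 were higher and 1 lower. Besides Magi2, this list held Dlg2 (17 members, 0.741 FPKM or less in every library), Ctnnd2 (13 members, 4.82 in NotoPdiff against 0.877 in MPdiff) and Pard3 (13 members, 27.1 against 26.3).

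Matrix and basement membrane genes, with a median length of 114 kb, had 22 hosts of 34 and 44 members (12.4 per Mb). Of these hosts 1, the integrin gene Itga6, was 3-fold higher, and of all 34 genes 3 were higher and 0 lower. Nid2, a basement membrane glycoprotein gene, had 4 members without the repeat and 49.3 FPKM in NotoPdiff against 41 in MPdiff, and Lamc1, a laminin chain, had 3 members and 38.8 against 21.9. Col11a1 had 5 members, with 1.02 and 2.06 FPKM in NotoPdiff and MPdiff and 32 and 74.5 in trunk notochord, and Adamts18 had 4 members with 0.401 against 0.161. In the Wnt pathway 20 of 40 genes were hosts, with 33 members (12.3 per Mb), and none of the hosts was 3-fold apart, while of all 40 genes 1 was higher and 2 were lower. Tcf7l2, a TCF factor, had 6 members with 15.5 FPKM in NotoPdiff and 13.8 in MPdiff. The R-spondin gene Rspo2 had 4 members at 0.0146 FPKM or less, its receptor gene Lgr5 had 3 members with 2.81 against 0.904, and Apc had 2 members with 32.2 against 26.3.

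For BMP, Nodal and TGF-beta genes, 12 of 34 were hosts with 38 members (17.5 per Mb, 12.4 to 24.0), and 2 hosts were 3-fold higher, as were 6 of all 34 genes, with 0 lower. The hosts were Tgfbr3, a co-receptor, with 7 members of which 6 held the repeat (12.3 FPKM in NotoPdiff against 1.65 in MPdiff), and Bmp7, a ligand, with 1 member. Bmpr1b, a BMP receptor, had 12 members at 1.84 against 0.582 FPKM, Tgfb2 had 4 members at 7.16 against 4.59, and Bmp6 had 4 members at 0.141 against 0.740. Cilium genes had 16 hosts of 33 and 59 members (13.1 per Mb), with 1 host, the dynein gene Dnah5, 3-fold higher. Of the 31 cilium genes with FPKM 3 were higher and 0 lower. Bbs9 had 12 members (4.81 against 5.10 FPKM), Spag16 had 8 (3.00 against 0.848), Rfx3, a ciliogenic transcription factor, had 5 (23.8 against 15.9), and Cfap54 had 9 members but no FPKM row.

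Endoderm genes had 7 hosts of 30 and 12 members (17.7 per Mb, 9.17 to 31.0), with Prox1 and Rab38 3-fold higher, and 11 of all 30 genes higher and 0 lower. Onecut1 had 2 members, both with the repeat, at 0.134 FPKM in NotoPdiff against 0 in MPdiff. Rab38 had 1 member at 7.84 against 1.90 FPKM. Mesoderm progenitor genes had 3 hosts of 30 (Pax3 with 2 members, and Fgfr1 and Wnt3a with 1 each), and none was 3-fold apart, while 6 of all 30 genes were lower and 0 higher. Factors of axis extension and the neural tube had 12 hosts of 28 and a density of 24.2 per Mb (17.4 to 32.7, and 16.1 without the repeat), with 3 hosts 3-fold lower and none higher, which are also the counts over all 28 genes. The lower ones were Aldh1a2, Meis1 and Meis2. Tcf4 had 11 members at 30.3 FPKM in NotoPdiff against 21.4 in MPdiff, Rarb, a retinoic acid receptor, had 8 at 0.833 against 0.477, and Zeb2 had 4 at 13.8 against 18.2. No housekeeping gene of 15 was a host, at 0.127 Mb of eligible sequence in all.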

How the data were processed

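The authors mapped ChIP-seq reads with Bowtie 1.3.1, kept uniquely mapped reads, removed duplicate fragments and called peaks per library with MACS3 3.0.0b1 at a q-value of 0.1. No control library is named for the calls. The deposited peak lists give fold enrichment (a ratio), -log10 q-values and a summit offset for each peak. FPKM values were deposited as 9 columns that the authors made with TopHat2 2.1.1, UMI removal and Cufflinks 2.2.1. These columns hold no read counts, and the mapped reads that the study lists for the embryonic libraries did not enter any value here. Peaks in artefact regions that the study set aside were not removed.

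From these, peaks were classed against GENCODE vM21 gene records (Python 3.11, pandas and pysam). FPKM rows were matched to 20400 of 21951 protein-coding records, 19654 by symbol and 746 by a RefSeq synonym, and 4238 of 4333 hosts (97.8%) were matched. Sequences came from GRCm38.p6, the build of the files. Differences are of log2(FPKM + 1), with 3-fold as the limit, and intervals are Wilson or exact Poisson. With 1 library per condition, no test was run. The code was tested on simulated data. Named hosts were the 10 with most members, the 5 with most per 100 kb (5 or more members), the 10 largest and 5 smallest differences (3 or more members), hosts of the 10 strongest members and of the 5 largest clusters (ties by shorter span) and up to 4 hosts of each gene list. Members and lists were chosen with earlier results of these data known. Of 21 samples, 10 were not analysed here. Of the hosts and sequences that this rule names, 1 host and 1 summit sequence are not reported here.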

Additional observations from a re-analysis of the deposited data

Results flagged for a closer look

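Aldh1a2, which encodes the main enzyme of retinoic acid synthesis in the early embryo and hosts 4 Foxa2-only distal peaks, differed in opposite directions in culture and embryo. The log2(FPKM + 1) difference was -2.36 between NotoPdiff and MPdiff (70.3 and 364 FPKM) and 1.86 between NotoP and MP at E9.5 (31.3 and 7.88 FPKM). At E8.5 it was 1.36 (42.9 and 16.0 FPKM). It was picked out because both differences exceed 3-fold with opposite sign. The difference between culture and embryo was not tested, since each condition had 1 library. Over all hosts, 5 of the 161 that were at least 3-fold apart in culture were at least 3-fold apart the other way at E8.5 or E9.5. The same count over all matched genes is not given here, so whether this share is particular to hosts is not known. Of these 5 hosts, Aldh1a2 was the only 1 to be so at E9.5. The other 4 (Arhgap24, Hid1, Krt7 and Ptprn2) were so at E8.5, with the MP library that lists most genes (13945) at 0. At E9.5 the difference had the same sign as in culture for Krt7 (4.30, beside 2.91 in culture), for Arhgap24 (-2.43, beside -1.91) and for Hid1 (1.00, beside 2.06). For Ptprn2 it kept the opposite sign at E9.5 (-0.364, beside 1.70 in culture).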

How the results depend on the processing

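Of 54 alternative values, 35 stayed within 1.5 times the count or within the counting interval of the percentage reported, and 19 did not. The numbers of members, hosts and hosts with 5 or more members stayed within 1.5 times for all other overlap rules, q cutoffs, distances, 5' ends and gene records tried (7903 to 10036 members and 3555 to 4688 hosts). Leaving out members with the CA/TG repeat, an alternative added after seeing the data, gave 5474 members, 177 hosts with 5 or more, 35 clusters, 40.04% with forkhead letters and 71.4% of hosts at 1 FPKM or more. Clusters numbered 7 with a gap of 5 kb and 439 with 25 kb. The forkhead share was 18.5% within 25 bp, 42.2% within 100 bp, 17.4% with the strict letters and 31.2% at a q-value of 0.001 or less. Hosts at least 3-fold higher numbered 434 with a pseudocount of 0.1 and 25 with 5, beside 7.04% and 0.426% of all genes, and 357 at 2-fold, beside 4.84%. Hosts lower numbered 117, 6 and 81 (2.76%, 0.142% and 1.91%), beside 2.61%, 0.123% and 1.58% of all genes. Hosts at 0.5 FPKM or more made up 74.0% and at 5 FPKM or more 49.6%. No paired analysis was possible because each comparison set 1 library against 1 and no replicate number pairs libraries. A model over several NotoP and MP pairs was not run. What depth limits could not be computed from the FPKM columns, and peaks found in a single library per factor cannot be checked against a replicate.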

Other observations

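Foxa2-only distal peaks at alternative starts were not removed by the choice of 1 end per gene. Of the 9503 members, 1600 (16.8%) lay within 5000 bp of the start of another transcript of a protein-coding gene, and 191 within 500 bp. The hosts of the 10 strongest members were mostly low in NotoPdiff. Fhit was at 1.28 FPKM, Alpk3 at 0.0153, Chrm3 at 0.630, Pak7 at 0.0714, Tmem117 at 0.140, Lyn at 1.29 and Spag1 at 2.60, while Dock1 was at 24.5 and Dock9 at 7.94 FPKM. Of these 10 summits 6 held the CA/TG repeat and 3 held forkhead letters. T-only distal peaks were found in 1606 of the 21951 protein-coding records. Of these 1606 genes, 65.4% also held a Foxa2-only member, beside 19.7% of all records. Among all hosts, 24.2% held a T-only distal peak. Gene length was not taken out of these shares, and hosts were longer than other records (median 88.1 kb against 12.1 kb). The rule itself kept members apart from T peaks.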
